A study of Mus musculus with 2 samples.

Results

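The 9 genes of the epidermal growth factor (EGF) family described here were followed across the cell types of the mouse small intestinal epithelium. They were 5 ligands (Areg, Ereg, Hbegf, Btc and Egf), 3 receptors (Egfr, Erbb2 and Erbb3) and Lrig1, a membrane protein that restrains these receptors. They were taken by symbol, 9 of the 55357 gene identifiers in the count tables, and no level or ratio served as a limit. The choice was made with earlier results of these data known. Transcripts were counted as unique molecular identifiers (UMIs, a tag that lets copies of 1 captured RNA be counted once) by droplet-based 3′ sequencing of single cells from crypt-enriched small intestine. There was 1 library from Adipfl/fl mice, in which the adiponectin gene is flanked by recombination sites, and 1 from Adipfl/flpVilli-CreT mice, which carry the same floxed gene together with a villin-driven Cre. Cre under this promoter acts in epithelial cells, so the floxed gene of immune cells in the second library is expected to stay intact. The mice were males of 8 weeks, pooled, so animals cannot be told apart, no difference between genotypes has a replicate check, and no test was made. All intervals are exact 95% intervals for counting error, and a difference between genotypes was counted as past the limit when it exceeded 1.5-fold with at least 50 UMIs in that cell class over both libraries. The comparison was made to ask whether adiponectin of Paneth cells, the defence cells at the crypt base, acts on stem and transit-amplifying (TA) cells.

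The tables held 9791 barcodes with 42150623 UMIs for Adipfl/fl and 11838 barcodes with 63370798 UMIs for Adipfl/flpVilli-CreT. Barcodes needed over 500 genes and less than 25% of their UMIs from mitochondrial genes, which left 3069 and 5555 cells with a median of 4838 and 4749 UMIs. The mitochondrial limit removed 4670 and 4263 barcodes, or 47.7% and 36.0%, and the limits as stated left fewer cells than the study describes. Adipoq, the deleted gene, had 1 UMI in all Adipfl/fl barcodes and 0 in the other library, so its expression gave no check of the labels. The libraries shared 31 barcodes, 3 of them among the cells kept. The cells fell into 14 classes or unnamed clusters with at least 20 cells in each library, 11 of them epithelial. The stem-like class had 41 and 120 cells, and T cell-like cells (470 and 554) were present although the label names epithelium. No cluster could be named Paneth-like, and 5 of 9 Paneth markers were enriched in the goblet-like cluster beside 7 of 7 goblet markers. A further 54 cycling cells of the Adipfl/flpVilli-CreT library formed a cluster with no Adipfl/fl cell and were left out of comparisons.

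EGF family ligands are made as membrane-anchored precursors and are shed by proteases to act on neighbouring cells. Areg, Egf and Btc bind Egfr, while Hbegf, Ereg and Btc can also engage Erbb4. Erbb2 has no known ligand and Erbb3 has little kinase activity, so both act by pairing with another receptor. In intestinal crypts EGF signals support the division of stem cells, and Lrig1 marks stem and progenitor cells there and limits signalling through Egfr and its partners.

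The ligand genes Ereg, Areg and Btc lie side by side on mouse chromosome 5 (RefSeq, GRCm38.p6). From the first to the last base, Epgn (91027517 to 91035212), Ereg (91074617 to 91093649), Areg (91139599 to 91148432) and Btc (91357261 to 91402994) span 375 kb, with 4 protein-coding genes annotated in that stretch. Epgn is a further ligand and is not among the 9. Among these neighbours the levels of Areg and Ereg were alike over cell classes and that of Btc was not, as described for each gene. The RefSeq promoter table, which runs from 250 bases before to 50 bases after each start, was read for every member but Hbegf. It held 7 promoters for 6 of these members and none for Ereg or Erbb3. The promoters of Areg (chr5:91139349-91139648, plus strand), Egfr (chr11:16751953-16752252, plus strand) and Lrig1 (chr6:94700096-94700395, minus strand) are shown because Lrig1 stood highest in the crypt, Areg on the lower villus and Egfr at the villus tip. They are written 5′ to 3′ in GRCm38.p6, and capitals mark matches on either strand to 6 short motifs: the cAMP response element TGACGTCA, the AP-1 motif TGANTCA, the TATA box with the letters TATAAA, the GC box GGGCGG, the TCF motif CTTTGA and 1 form of the E-box, CAGATG. Other forms of the E-box were not searched.
Areg: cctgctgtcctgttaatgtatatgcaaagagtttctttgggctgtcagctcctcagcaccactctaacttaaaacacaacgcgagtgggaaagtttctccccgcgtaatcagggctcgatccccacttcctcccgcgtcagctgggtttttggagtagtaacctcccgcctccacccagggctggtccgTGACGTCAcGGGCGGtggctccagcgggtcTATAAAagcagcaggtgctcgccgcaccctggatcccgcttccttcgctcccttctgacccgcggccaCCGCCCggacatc
Egfr: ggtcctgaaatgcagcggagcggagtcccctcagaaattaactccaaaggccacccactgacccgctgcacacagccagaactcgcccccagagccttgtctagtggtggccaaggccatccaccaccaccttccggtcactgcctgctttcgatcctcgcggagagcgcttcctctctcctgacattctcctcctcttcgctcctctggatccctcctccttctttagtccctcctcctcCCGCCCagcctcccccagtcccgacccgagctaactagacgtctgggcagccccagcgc
Lrig1: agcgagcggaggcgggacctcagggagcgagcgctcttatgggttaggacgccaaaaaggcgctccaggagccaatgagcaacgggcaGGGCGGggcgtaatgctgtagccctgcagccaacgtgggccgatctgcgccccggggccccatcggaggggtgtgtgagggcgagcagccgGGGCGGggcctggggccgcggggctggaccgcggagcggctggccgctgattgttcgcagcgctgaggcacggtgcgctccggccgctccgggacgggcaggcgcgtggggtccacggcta
No matches overlapped. Areg held a cAMP response element whose first base was at -61 from the start, a TATA match at -31, and GC boxes at -52 and 37. Of 32851 promoters of this length, 1.79% held the cAMP response element, 13.6% the TATA match and 35.7% a GC box. Egfr held 1 GC box at -9 and Lrig1 held 2, at -162 and -71, and neither held a TATA match. No promoter of Btc, Egf or Erbb2 matched any of the 6 motifs, and the AP-1 (7.81% of all promoters), TCF (16%) and CAGATG (17.2%) letters were in none of the members' promoters read here. These are letter matches in a window and do not show binding.

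**Figure D1:**
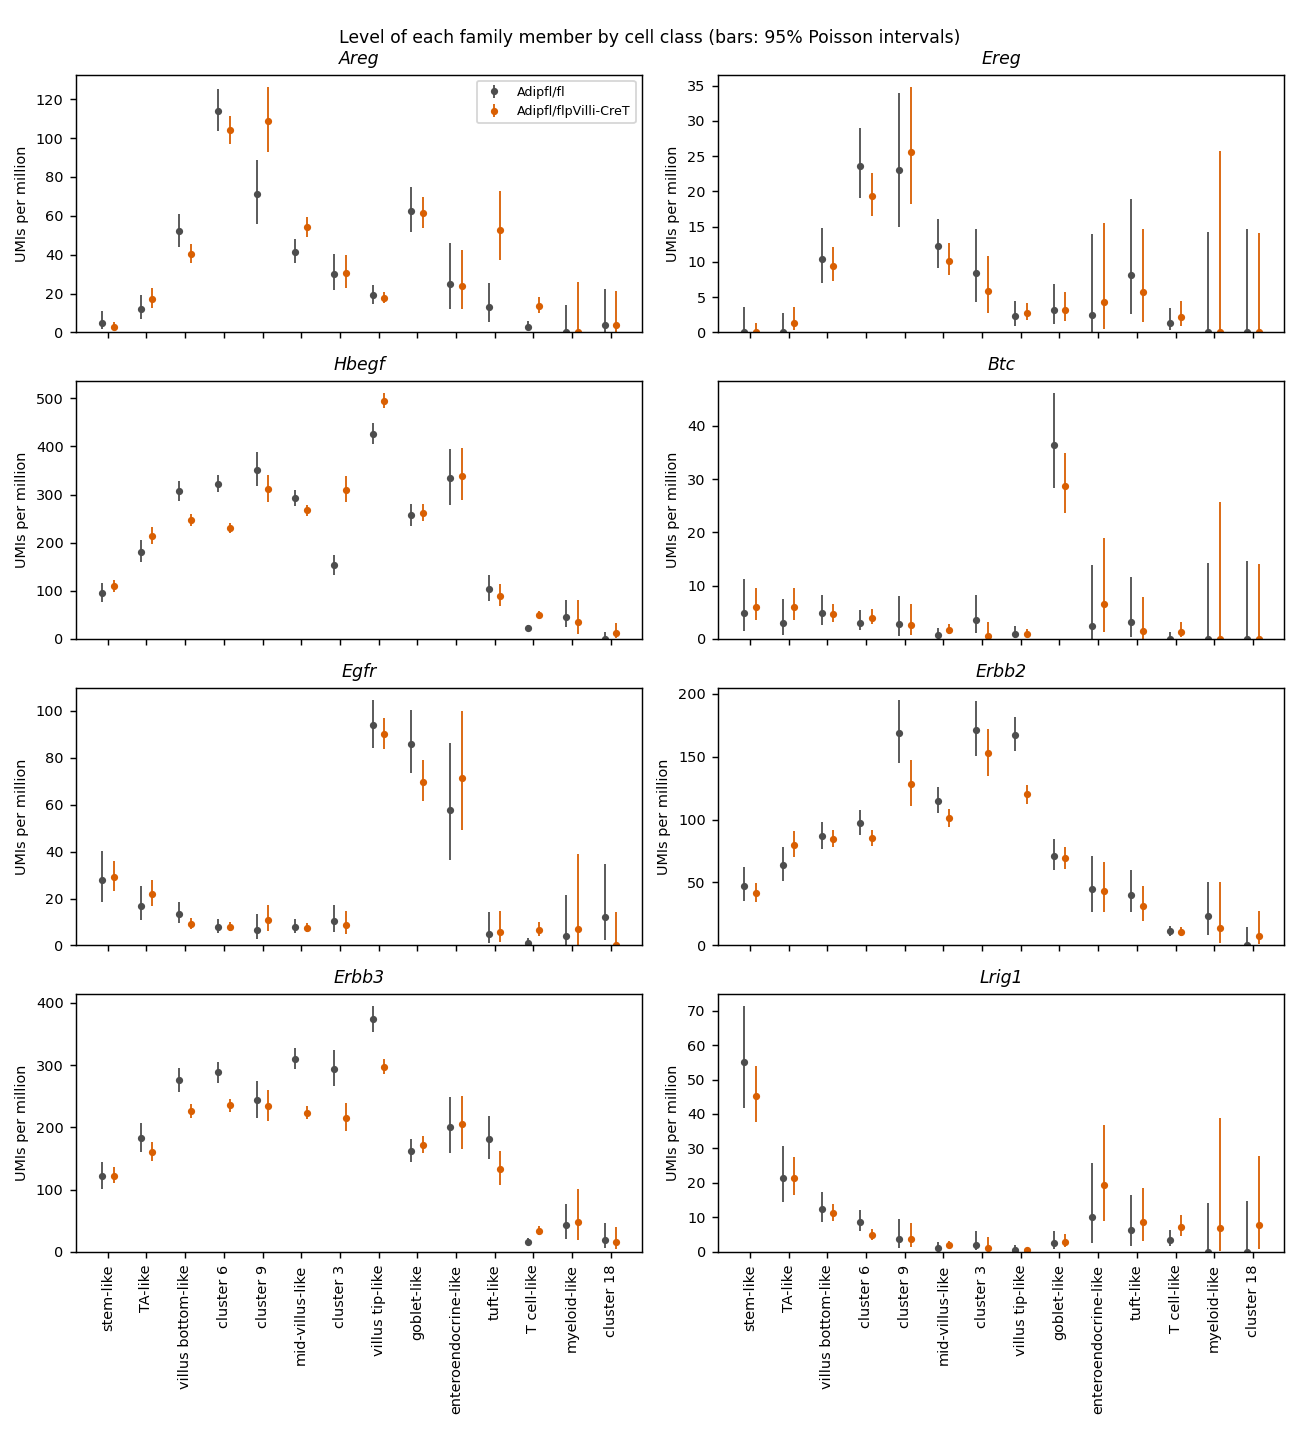
Level of 8 members (CPM, UMIs of the gene per 1000000 UMIs of the class, linear axes from 0) in 14 cell classes, with 1 point per library and bars for the 95% Poisson interval. Areg and Ereg stand highest in clusters 6 and 9, Btc in goblet-like cells, Egfr in villus tip-like, goblet-like and enteroendocrine-like cells, and Lrig1 in stem-like cells; Egf, with 15 UMIs in all, is not drawn.

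Areg encodes amphiregulin, a ligand made in epithelia and in some lymphocytes. Its level was highest in clusters 6 and 9, a pair of enterocyte clusters that kept their numbers because cluster 6 was enriched for 6 villus bottom and 6 mid-villus markers and cluster 9 for 1 of each. Levels are given as counts per 1000000 UMIs of a class (CPM). In Adipfl/fl cells Areg was at 114 CPM in cluster 6 (104 to 125) and 71.0 in cluster 9 (56.0 to 88.8). In Adipfl/flpVilli-CreT cells it was 104 (97.1 to 111) and 109 (93.0 to 126), so the libraries put these clusters in opposite order, and in the second library the intervals overlapped. Areg was among the 10 leading genes of cluster 6, although neither it nor any other member was used for clustering. Goblet-like cells followed with 62.3 and 61.4 CPM, villus bottom-like cells with 52.1 and 40.4, and mid-villus-like cells with 41.7 and 54.1. Stem-like cells held 5 and 8 Areg UMIs in all, or 4.82 and 2.83 CPM. Cluster 6 exceeded stem-like cells by 23.7-fold (10.1 to 73.3) and 36.8-fold (18.6 to 85.4).

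Ereg encodes epiregulin, a ligand of Egfr and Erbb4. It was highest in the same clusters as Areg but at few counts. Its level was 23.6 and 19.4 CPM in cluster 6, from 92 and 160 UMIs, and 23.1 and 25.6 in cluster 9. In goblet-like cells it was 3.17 and 3.26, and the ratio of cluster 6 to goblet-like cells was 7.46 (3.30 to 20.8) and 5.96 (3.32 to 11.8). For Areg the same ratio was 1.83 (1.49 to 2.27) and 1.70 (1.46 to 1.97), so the ligands differed in goblet-like cells. No Ereg UMI was found in stem-like cells of either library, where 3 UMIs would be 2.89 and 1.06 CPM. Across the 14 classes of both libraries the log2 levels of Areg and Ereg had a Pearson r of 0.854 over 28 values, which share libraries and depth.

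Hbegf encodes heparin-binding EGF-like growth factor, an early response gene in many epithelia. It was detected in 1583 of 3069 and 3467 of 5555 cells. Its class level was highest in villus tip-like cells, at 427 (405 to 449) and 495 (480 to 510) CPM. The villus tip-like class joined clusters 0, 1 and 2, of which cluster 1 was the largest in Adipfl/fl (380 of 903 cells) and cluster 0 in Adipfl/flpVilli-CreT (929 of 2114), so its clusters were also read one by one. Cluster 1, led by Ubd and Aldh4a1, was enriched for 3 of 8 tip markers, and clusters 0 and 2 for 6 each. With members and pathway genes kept in for clustering, the cluster led by Ubd and Aldh4a1 had 2 tip markers and no name. In cluster 0 the level was 495 and 515 CPM, in cluster 2 it was 518 and 551, and in cluster 1 it was 268 and 356. Stem-like cells had 95.5 and 110, and TA-like cells, named for the dividing daughters of stem cells, had 181 and 214. Both classes were cycling: the summed level of 12 cycling markers was 3036 and 2427 CPM in stem-like cells and 2761 and 2656 in TA-like cells. Comparisons of these classes therefore do not set resting against dividing cells. After thinning to 2000 UMIs, 49.9% and 57.1% of villus tip-like cells had an Hbegf UMI (65.2% and 71.7% before, at a median of 3537 and 3459 UMIs), against 2.45% and 6.92% of T cell-like cells (7.02% and 12.8%, at 5224 and 4548). Cluster 2 exceeded stem-like cells by 5.43-fold (4.37 to 6.80) and 5.0-fold (4.42 to 5.66).

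The enteroendocrine-like clusters, hormone-producing cells, differed in Hbegf. Cluster 20, led by Cartpt, Reg4 and Tph1, had 591 (481 to 719) and 530 (443 to 630) CPM from 24 and 28 cells. Cluster 19, led by Ghrl, Gcg, Cck and Pyy, had 144 (98.9 to 202) and 127 (84.4 to 184) from 30 and 28 cells. The ratio was 4.11 (2.75 to 6.30) and 4.18 (2.76 to 6.53), so the same difference was seen in both libraries. In Adipfl/flpVilli-CreT 37 of the 129 Hbegf UMIs of cluster 20 were in 1 cell, which the interval does not cover. Egfr was also higher in cluster 20, by 2.55-fold (1.01 to 6.93) and 5.08-fold (1.94 to 16.8), and Areg had 9 and 10 UMIs there against 1 and 1.

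Btc encodes betacellulin, a ligand of Egfr and Erbb4. Goblet-like cells, the mucus-secreting cells, held 69 of its 121 and 106 of its 240 UMIs. Its level there was 36.4 (28.3 to 46.1) and 28.8 (23.6 to 34.8) CPM, and in the other epithelial classes it lay between 0.586 and 6.47. Read on its own, enteroendocrine-like cluster 20 had 8.22 CPM in Adipfl/flpVilli-CreT. Goblet-like cells exceeded that cluster by 3.50-fold (0.945 to 29.3), an interval that includes 1. Goblet-like cells exceeded villus bottom-like cells by 7.49-fold (4.18 to 14.4) and 6.17-fold (4.12 to 9.47). With each cell thinned to 2000 UMIs, 6.51% and 6.70% of goblet-like cells had a Btc UMI, against 0 of 449 and 0 of 506 T cell-like cells, which at that depth allow up to 0.818% and 0.726% of cells with a UMI. Before thinning the shares were 23.6% and 19.9% of goblet-like cells, and 0 of 470 and 4 of 554 (0.722%) T cell-like cells. Of the 53 and 81 goblet-like cells with a Btc UMI, 24 and 39 also had an Egfr UMI, beside 89 of 225 and 146 of 408 goblet-like cells in all.

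Egf itself, the founding ligand of the family, had 3 and 12 UMIs in all kept cells, never more than 1 per cell, so no level could be given by class. Of the other ligands of the pathway list, Tgfa had 385 and 847 UMIs and was spread at low level, with its highest level of 29.1 in tuft-like cells of Adipfl/fl and 25.3 in goblet-like cells of Adipfl/flpVilli-CreT. Nrg4 had 44 and 73 UMIs and was highest in tuft-like cells (16.2 and 14.3), Epgn had 1 and 4 UMIs, and Nrg3 had none in either library. Of the 4 neighbouring genes, Areg and Ereg were thus highest in enterocytes, Btc in goblet-like cells, and Epgn was near 0.

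**Figure D2:**
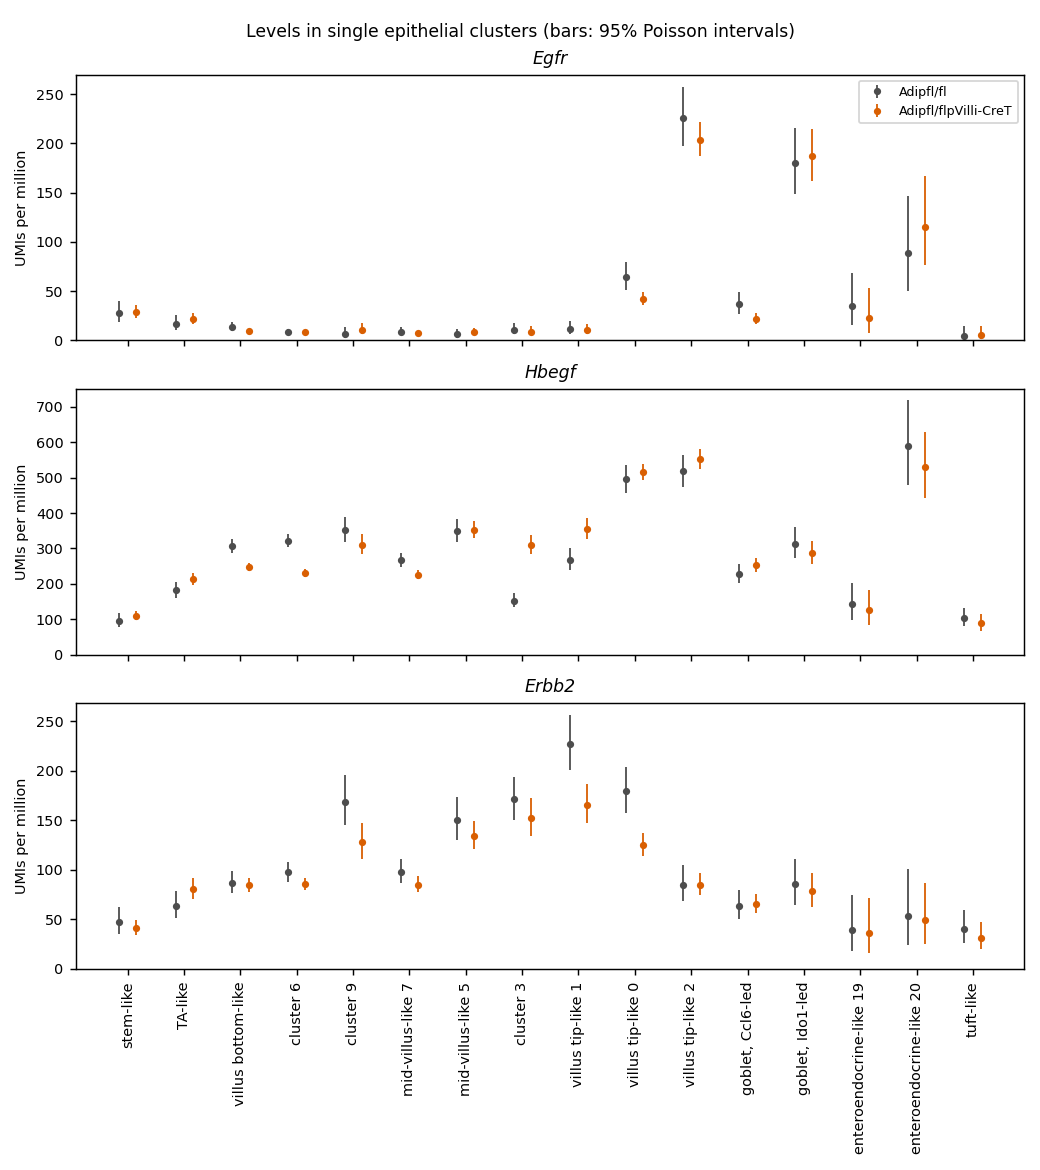
Levels of Egfr, Hbegf and Erbb2 (CPM, linear axes from 0) in 16 epithelial clusters, with 1 point per library and bars for the 95% Poisson interval; the 2 goblet clusters come from a finer clustering. Egfr is concentrated in villus tip-like cluster 2 and in the Ido1-led goblet cluster, where both libraries lie between 180 and 226, while Erbb2 is lower in tip cluster 2 (85.1 in both) than in clusters 0 and 1.

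Egfr, the receptor for EGF, was unevenly spread among cells of 1 name. In villus tip-like cluster 2, led by Nt5e, Rab30 and Gprc5a, its level was 226 (198 to 257) and 204 (187 to 221) CPM. In cluster 0 it was 64.1 and 42.3, and in cluster 1 it was 11.2 and 10.1, so cluster 2 exceeded cluster 1 by 20.1-fold (11.5 to 38.4) in Adipfl/fl and 20.1-fold (12.4 to 34.7) in Adipfl/flpVilli-CreT. Mid-villus-like cells had 7.95 and 7.43. Stem-like cells had 28.0 (18.7 to 40.2) and 29.0 (23.1 to 36.0), above mid-villus-like cells by 3.52-fold (2.06 to 5.98) and 3.90-fold (2.76 to 5.55), and TA-like cells had 17.0 and 21.8. As a class, villus tip-like cells had 93.9 and 90.2, which did not stand apart from goblet-like cells in Adipfl/fl (a ratio of 1.09, 0.902 to 1.32) or from enteroendocrine-like cells in Adipfl/flpVilli-CreT (1.27, 0.894 to 1.85). The level was high at the tip, low along the middle of the villus and higher again in the crypt, in both libraries. After thinning to 2000 UMIs, 14.15% and 13.44% of villus tip-like cells had an Egfr UMI, against 0.445% and 0.791% of T cell-like cells.

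Goblet-like cells had 86.1 and 69.8 Egfr CPM, and a finer clustering (resolution 1.2, whose goblet clusters were compared after their values were seen) divided them. The cluster led by Ido1, Nupr1 and Ttyh1 (122 and 195 cells) had 180 (149 to 215) and 187 (162 to 215) CPM. The cluster led by Ccl6, Pla2g10 and Tpsg1, which had Lyz1 and Defa24 among its leading genes (103 and 214 cells), had 36.4 (26.5 to 48.6) and 21.4 (16.2 to 27.8). The ratio was 4.95 (3.48 to 7.14) and 8.72 (6.46 to 11.9). For Btc the same ratio was 1.54 (0.926 to 2.54) and 1.53 (1.01 to 2.30), and for Erbb3 it was 1.09 (0.855 to 1.38) and 0.944 (0.790 to 1.13). Egfr thus differed far more between these clusters than Btc or Erbb3 did, and the Ido1-led cluster was the shallower, with a median of 4740 and 5177 UMIs per cell against 7814 and 8606.

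Erbb2 and Erbb3, the partner receptors, were broad in the epithelium. The Erbb3 level ran from 122 and 123 CPM in stem-like cells to 374 (354 to 395) and 297 (286 to 310) in villus tip-like cells, a ratio of 3.08 (2.56 to 3.72) and 2.42 (2.16 to 2.72). Of the 126 Erbb3 UMIs of Adipfl/fl stem-like cells, 34 were in 1 cell. The Erbb2 level was 47.3 and 41.4 in stem-like cells and 168 and 120 in villus tip-like cells. Its highest class was cluster 3 (171 and 152), which exceeded cluster 9 by 1.01-fold (0.833 to 1.23) and 1.19-fold (0.987 to 1.44), both intervals including 1. Within the villus tip-like class the receptors parted: Erbb2 was 227 and 166 in cluster 1, 179 and 125 in cluster 0, and 85.1 and 85.1 in cluster 2, the cluster with the most Egfr, while Erbb3 was 341 and 248, 398 and 298, and 380 and 326. Cluster 1 was enriched for fewer tip markers than the others, and the part of villus position in these differences was not tested. Cluster 1 exceeded cluster 2 in Erbb2 by 2.67-fold (2.09 to 3.44) and 1.95-fold (1.63 to 2.33).

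Lrig1 was highest in stem-like cells, with 55.0 (41.6 to 71.2) and 45.3 (37.8 to 53.8) CPM. TA-like cells had 21.5 in each library, villus bottom-like cells 12.5 and 11.2, mid-villus-like cells 1.2 and 1.89, and villus tip-like cells 0.573 and 0.491 from 2 and 4 UMIs. Enteroendocrine-like cells had 10.0 and 19.4 from 4 and 9 UMIs, and their cluster 19 had 36.3 (15.7 to 71.5) in Adipfl/flpVilli-CreT, which stem-like cells exceeded by 1.25-fold (0.614 to 2.95), an interval that includes 1. Stem-like cells exceeded TA-like cells by 2.56-fold (1.61 to 4.16) and 2.11-fold (1.55 to 2.91) and villus bottom-like cells by 4.40-fold (2.85 to 6.87) and 4.03-fold (3.02 to 5.42). A Lrig1 UMI was found in 56.1% and 55.0% of stem-like cells, whose median depth was 18065 and 17933 UMIs, against 1.92% and 3.25% of T cell-like cells at 5224 and 4548. After thinning to 2000 UMIs the shares were 9.76% (2.72 to 23.1) and 8.40% (4.1 to 14.9) against 0.668% and 0.988%. In the T cell-like class Lrig1 was unevenly spread, with 10.9 and 17.2 CPM in cluster 12 and 0 and 0.949 in cluster 8.

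**Figure D3:**
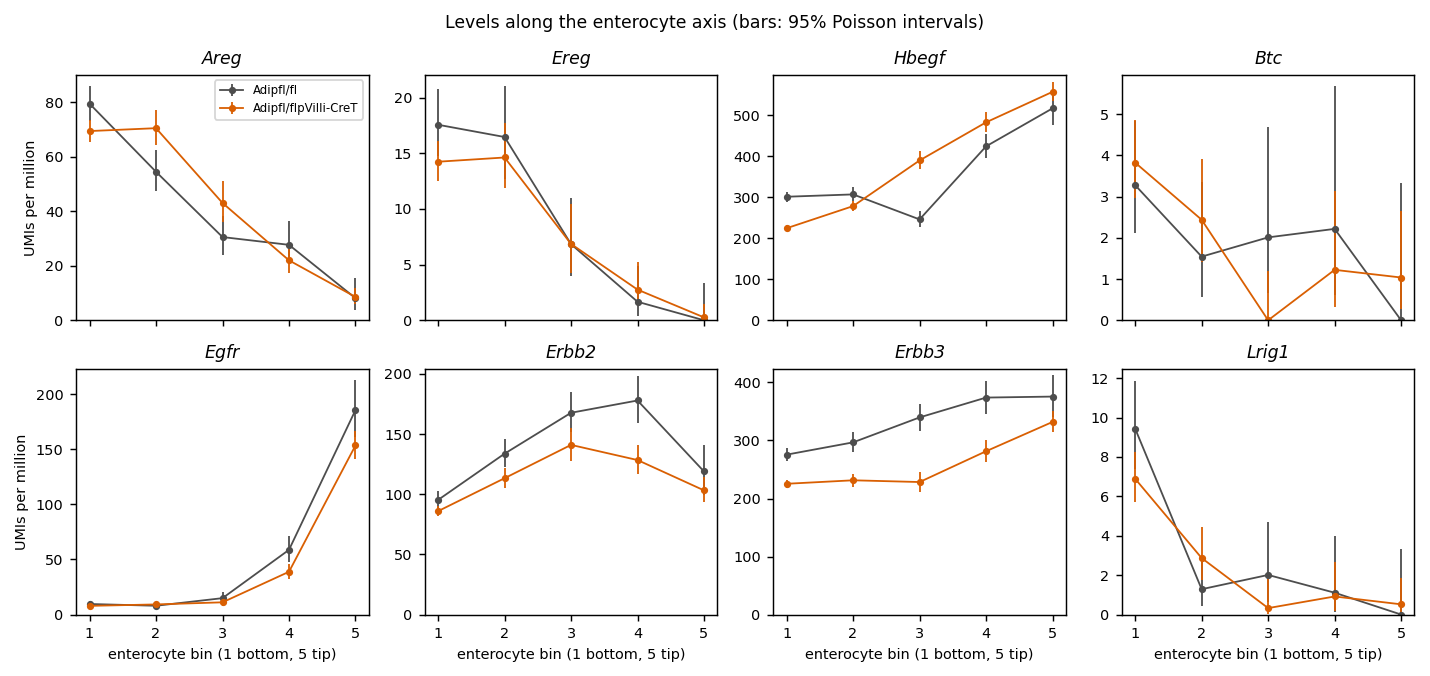
Levels of 8 members (CPM, linear axes from 0) in 5 bins of enterocytes ordered from villus bottom to villus tip genes, with 1 line per library and bars for the 95% Poisson interval. Egfr is at 186 and 154 in the last bin after 9.57 and 7.88 in the first, and Areg and Ereg run the other way.

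To place enterocytes by a score, 6184 of 6198 were ordered by the share of 8 tip genes among their UMIs of 8 tip and 12 bottom genes. None of these genes is a member, and the cells were cut into 5 bins. The enterocytes were those of the enterocyte clusters, and the genes were the markers used to name these clusters. The axis is therefore another view of the class levels and not an independent check of them. Position, depth and mitochondrial share moved together: median UMIs were 17308 and 17165 in the first bin and 3669 and 3619 in the last, and the clusters of the tip had a median of 19.1 to 22.3% mitochondrial UMIs against 5.04 and 5.08% in villus bottom-like cells. Their part in the trends was not tested. From first to last bin Egfr was higher by 19.4-fold (14.8 to 25.7) and 19.5-fold (16.2 to 23.7), with most of the gain in the last 2 bins. Hbegf was higher by 1.72-fold (1.56 to 1.88) and 2.48-fold (2.35 to 2.62), and Erbb3 by 1.36-fold and 1.47-fold. Erbb2 was highest in bin 4 of Adipfl/fl (178 CPM) and bin 3 of Adipfl/flpVilli-CreT (141), and was 119 and 103 in the last bin.

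Areg, Ereg and Lrig1 ran the other way, with less toward the tip. Areg was 79.5 and 69.5 CPM in the first bin and 8.11 and 8.56 in the last, a ratio of 0.102 (0.0464 to 0.195) and 0.123 (0.0844 to 0.174). Ereg had 134 and 246 UMIs in the first bin and 0 and 1 in the last. Lrig1 had 72 and 119 in the first and 0 and 2 in the last. In all, 4 of the 9 members, Egfr, Hbegf, Erbb2 and Erbb3, were higher in the last bin than in the first in both libraries. The share of all genes that were so is not given, so nothing was read from this count. With Apoa4 and the Reg3 genes left out of the axis, the Egfr ratio was 19.6 and 20.3, and the Areg ratio 0.0384 and 0.110. The Erbb2 ratio was then 1.31 (1.10 to 1.55) and 1.11 (0.980 to 1.26), and the second interval includes 1.

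Of 8 members with enough UMIs, 6 had their highest class in common between the libraries, and Areg and Ereg exchanged clusters 6 and 9. The share of all genes with a highest class in common is not given, so this count does not set the members apart. The genes with levels most like each member over the 28 class values (Pearson r of log2 levels, a description) were Mgam2-ps (0.895), Adipor2 (0.890) and Slc6a20a (0.885) for Areg, and Bco2 (0.922), Slc2a5 (0.919) and Ptdss1 (0.911) for Ereg. For Hbegf they were Dstn (0.959), Rhou (0.945) and Serpinb1a (0.942), and for Btc they were Mlph (0.949), Chst4 (0.947) and 2010001K21Rik (0.937). Egfr was most like S100a14 (0.903), Acsl3 (0.892) and Cldn4 (0.846). Erbb2 was most like Lrrc1 (0.961), Itga3 (0.953) and Stap2 (0.953), Erbb3 like Gipc2 (0.966), Misp (0.965) and Prr15l (0.961), and Lrig1 like Snhg4 (0.928), Rangrf (0.928) and Smyd2 (0.925). Among members, Hbegf and Erbb3 (0.933) and Erbb2 and Erbb3 (0.921) were most alike. All values share 2 libraries and differ in depth, so nothing was read from their size.

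**Figure D4:**
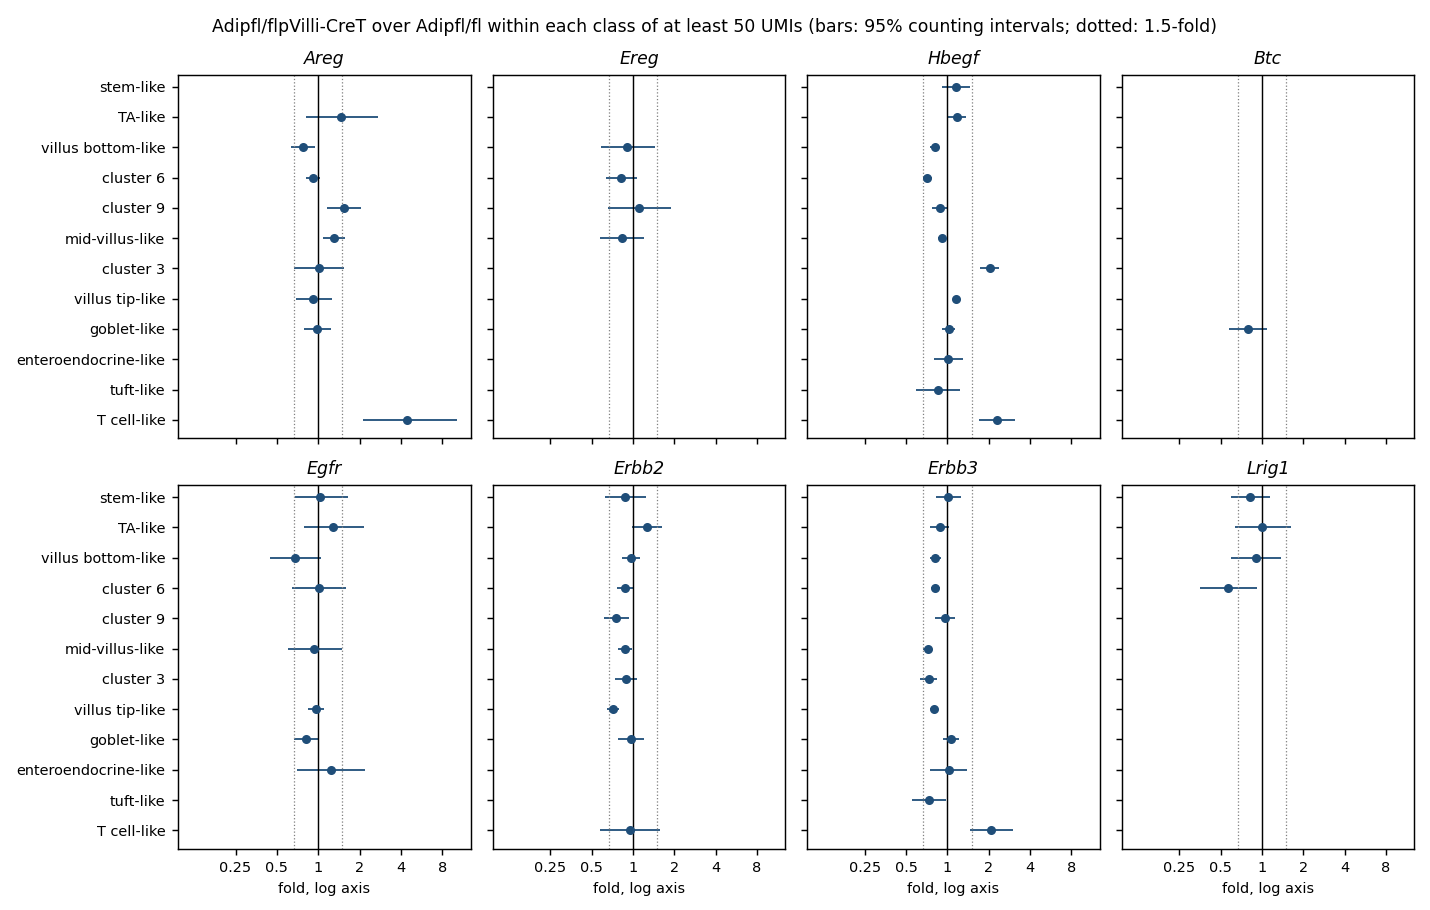
Ratio of Adipfl/flpVilli-CreT to Adipfl/fl level (log axis) for each member in each class with at least 50 UMIs, with bars for the 95% counting interval and dotted lines at 1.5-fold. Most of the 60 points lie within the dotted lines, and the 5 points to the right of them are Areg, Hbegf and Erbb3 in T cell-like cells, Hbegf in cluster 3 and Areg in cluster 9, with Lrig1 in cluster 6 to the left.

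Between genotypes, 6 of 60 member and class pairs were past 1.5-fold, or 10.0%, against 9.59% of all 85784 gene and class pairs of the same minimum, so the share of members was near the background. Of these, 5 were higher in Adipfl/flpVilli-CreT cells and 1 lower. The median log2 ratio of the members was -0.11, against -0.001 for all genes. In epithelial classes 3 of 56 pairs (5.36%) were past the limit, against 8.79% of all genes there. In stem-like and TA-like cells, the cells the study set out to examine, 0 of 5 and 0 of 6 members with enough UMIs were past 1.5-fold, where 8.62% and 7.45% of all genes were, so counts this small say nothing about the members. Areg, Ereg, Btc and Egf had too few UMIs in stem-like cells to be counted. In stem-like cells Lrig1 had a ratio of 0.824 (0.598 to 1.15), Egfr 1.04 (0.672 to 1.64), Erbb3 1.01 (0.821 to 1.25) and Hbegf 1.16 (0.919 to 1.46). A single cell held 34 of the 126 Erbb3 UMIs of Adipfl/fl, and 19 of the 347 of Adipfl/flpVilli-CreT. For Hbegf a single cell held 16 of 99 and 37 of 312. The intervals do not cover such unevenness among cells. Other markers differed in this class: the summed level of 9 Paneth markers was 59.8 and 728 CPM, that of 9 T cell markers 17.4 and 159, and that of 6 fibroblast or smooth muscle markers 0 and 236, and their part in the member values was not tested.

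The epithelial member pair furthest past the limit was Hbegf in cluster 3, unnamed enterocytes led by Clca3a1, Angptl4 and Plb1. Its level was 153 (133 to 174) CPM in 373 Adipfl/fl cells and 310 (284 to 338) in 438 Adipfl/flpVilli-CreT cells, a ratio of 2.03 (1.73 to 2.39). After thinning to 2000 UMIs, 22.1% (17.8 to 26.8) and 40.5% (35.7 to 45.3) of these cells had an Hbegf UMI. In this cluster 7 of 41 pathway genes were past the limit (17.1%, against 10.5% of all genes), 5 higher and 2 lower. Of the higher ones Errfi1, a feedback inhibitor of EGF receptors, had 104 and 161 CPM (1.54-fold, 1.26 to 1.90), Dusp6, a phosphatase of ERK, 95.3 and 167 (1.75-fold, 1.42 to 2.17), and Phlda1 12.6 and 44.0 (3.49-fold, 2.06 to 6.20). Egr1, an early response transcription factor, had 42.1 and 64.5 (1.53-fold, 1.11 to 2.14), and Grb2 had a ratio of 1.54. Of the lower ones Gab2, an adaptor, was at 20.3 and 13.5 (0.664, 0.367 to 1.19). Errfi1, Dusp6, Egr1 and Gab2 are named here after their values were seen. Hbegf was lower in cluster 6, at 322 and 230 (0.714, 0.665 to 0.767), and in villus bottom-like cells, at 307 and 247 (0.806, 0.742 to 0.875), both within 1.5-fold. The summed level of 7 goblet markers in cluster 3 was 454 and 1150 CPM, with none at 0, and that of 8 villus tip markers 10660 and 9297, and their part in the Hbegf value was not tested.

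In cluster 9 Areg was 71.0 and 109 CPM, a ratio of 1.53 (1.16 to 2.03), and in cluster 6 Lrig1 was 8.73 and 4.98, a ratio of 0.570 (0.353 to 0.926), from 34 and 41 UMIs. Both lie close to the limit, and with each cell weighted equally the Areg ratio was 1.49 and the Lrig1 ratio 0.677, both within it. The summed level of 7 goblet markers in cluster 9 was 1137 CPM, with 1 marker at 0, and 3526, with none at 0, and its part in the Areg value was not tested. In cluster 6 the summed level of goblet markers was 201 and 933 CPM and that of 8 B or plasma cell markers 9.50, with 5 at 0, and 494, with 3 at 0, and their part in the Lrig1 value was not tested. In tuft-like cells Areg had 8 and 37 UMIs, a ratio of 4.09 (1.87 to 10.2), below the minimum of 50 UMIs, and 14 of the 37 were in 1 cell. In this class the summed level of goblet markers was 463 and 4623 CPM and that of T cell markers 17.8 and 204, and their part in the Areg value was not tested.

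The receptor genes Erbb2 and Erbb3 were lower in Adipfl/flpVilli-CreT cells by less than 1.5-fold in most classes. Erbb3 was lower in 8 of 11 epithelial classes, with ratios from 0.719 to 1.06, and Erbb2 in 8 of 9, with ratios from 0.716 to 1.26. How many of all genes were lower in as many classes is not given, and the classes share the same libraries. These counts of classes therefore do not set the receptors apart from other genes. In mid-villus-like cells Erbb3 was 310 (294 to 328) and 223 (213 to 234) CPM, and in villus tip-like cells Erbb2 was 168 (154 to 182) and 120 (113 to 128). In tip cluster 2 Erbb2 did not differ between libraries beyond counting error (85.1 and 85.1, a ratio of 1.00, 0.779 to 1.29). Erbb3 in goblet-like cells had a ratio of 1.06 (0.925 to 1.22). With single clusters in place of classes, 9 of 71 member pairs were past 1.5-fold, and the share of all genes is not given. Egfr in tip cluster 0 was 64.1 and 42.3 CPM (0.659, 0.503 to 0.870), against 0.960 (0.84 to 1.10) in the whole class. Areg in mid-villus-like cluster 5 had a ratio of 1.54 (1.09 to 2.21). Ereg in mid-villus-like cluster 7 had 0.663 (0.429 to 1.03), and Erbb3 in enteroendocrine-like cluster 20 had 1.52 (0.9545 to 2.46).

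The remaining differences by class were in T cell-like cells, where 3 of 4 members with enough UMIs and 989 of 8897 genes (11.1%) were past the limit. With so few members nothing was read from this count. Areg was 3.05 and 13.5 CPM there, from 9 and 43 UMIs (4.42-fold, 2.13 to 10.3), Hbegf 22.1 and 50.5 (2.29-fold, 1.71 to 3.11), and Erbb3 16.3 and 33.9 (2.08-fold, 1.47 to 2.99). With the cells of the highest doublet scores removed the Erbb3 ratio was 1.39, and with each cell weighted equally it was 1.19, both within the limit. Epithelial transcripts were higher in these cells of the second library as well: Fabp1 stood at 2.99% and 8.87% of its epithelial mean, Krt20 at 8.79% and 17.2%, and Apoa4 at 9.79% and 23.95%. The summed level of 7 goblet markers there was 243 CPM, with 1 marker at 0, and 5320, with none at 0, and that of 11 mid-villus markers was 548 and 1630. Hbegf stood at 7.57% and 17.7% of its epithelial mean and Erbb3 at 5.97% and 15.2%, within the range of those enterocyte transcripts, and Areg at 6.10% and 26.85%. Erbb2, the other member with enough UMIs in this class, was at 11.2 and 10.7 CPM (0.953-fold, 0.573 to 1.59), or 10.2% and 11.5% of its epithelial mean. The part of epithelial transcripts in the member values was not tested. Of the 43 Areg UMIs, 19 were in cluster 13, which carried cycling markers, against 1 in Adipfl/fl.

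The rest of the pathway was read from 8 hand-written lists of 68 genes, of which 67 had 1 identifier. In epithelial classes 44 of 470 gene and class pairs were past 1.5-fold, 28 higher and 16 lower, or 9.36%, near the 8.79% of all genes there, with a median log2 ratio of 0.02 against 0.01 for all genes. Past the limit were 1 of 8 pairs of the other ligands, higher, and 3 of 37 of the sheddases, the proteases that release ligands, 2 of them higher. For adaptors and the Ras cycle it was 6 higher and 2 lower of 112, for the kinases of the ERK cascade 4 and 4 of 80, for the PI3K-Akt arm 1 and 1 of 75, and for inhibitors and turnover 5 and 4 of 92. The ERK response genes had 9 higher and 4 lower of 66, with a median log2 ratio of 0.09, and the medians of the other lists lay between -0.02 and 0.17. Erbb4, the remaining receptor, had 1 and 0 UMIs.

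Of the pathway genes, Phlda1 and Grb2 were past the limit in the same direction in at least 3 epithelial classes. How many of all genes were so is not given, and the classes share the same libraries, so this does not set Phlda1 and Grb2 apart from other genes. Phlda1, an ERK-induced gene, was higher in TA-like cells (8.14 and 26.4 CPM, from 11 and 75 UMIs, a ratio of 3.24, 1.71 to 6.77), mid-villus-like cells (10.1 and 17.4) and cluster 3, and lower in enteroendocrine-like cells (198 and 117). Phlda1 was also high in tuft-like cells (247 and 270 CPM). In TA-like cells the summed level of 7 goblet markers was 167 and 1758 CPM, that of 9 T cell markers 15.5 and 238, that of 9 tuft markers 33.3 and 80.9, and that of 8 villus tip markers 322 and 747, and their part in the Phlda1 value was not tested. Grb2, the adaptor that links receptors to Ras, was higher in enteroendocrine-like cells (55.1 and 86.3), tuft-like cells (37.2 and 60.0) and cluster 3 (47.7 and 73.3), with ratios of 1.57 (0.908 to 2.77), 1.61 (0.948 to 2.81) and 1.54 (1.14 to 2.10). In stem-like cells Phlda1 had a ratio of 0.935 and Grb2 of 0.980, and 0 of the 41 pathway genes measured there were past 1.5-fold, against 671 of 7789 genes (8.62%).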

How the data were processed

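The authors demultiplexed the reads with bcl2fastq 5.0.1 (submitters' processing notes) and made the deposited UMI counts per gene and barcode with Cell Ranger against mm10. The study's methods name version 7.0.0, and the file header names 7.1.0. The counts were not normalized. From them, barcodes were used if they held over 500 genes and their mitochondrial share was below 25% of UMIs. Counts were scaled to 10000 per cell and logged, and 2000 variable genes, less 6 members or pathway genes, gave 20 principal components and clusters at resolution 0.8 (Seurat 5.3.0, R 4.3.3), with crypt cells divided again at 0.4. A cluster with at least 5 T cell markers enriched 2-fold was named T cell-like, whatever the other lists held. Of the rest, one with at least 5 stem cell markers and fewer than 5 tuft markers was named stem-like, also without comparing other lists. Any other cluster was named from the list with the largest enriched share, if at least 3 markers were enriched. That share also had to lead any other such list by at least 0.1. Scrublet (scanpy 1.11.5, Python 3.11.15) called 3 and 2 cells as doublets, which is too few to have worked, so no doublets were removed, and removing the 8% of cells with the highest scores was an alternative.

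Levels are summed UMIs per 1000000 UMIs of a class and library (CPM), with exact Poisson intervals, and ratios have exact binomial intervals (scipy 1.17.1). Shares of cells were also taken after thinning each cell to 2000 UMIs. Intervals and floors of 3 UMIs cover counting error only, and with 1 library per genotype no p-value was computed. Pathway genes were named when past 1.5-fold in the same direction in at least 3 epithelial classes, and likeness was Pearson's r of log2 (level + 10). Scripts were tested on simulated counts. The genes, lists and comparisons were chosen with earlier results of these data known. Nrg1 had 2 identifiers and was not used here. The values of 1 pathway gene are not reported here.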

Additional observations from a re-analysis of the deposited data

How the results depend on the processing

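No paired analysis was possible because each genotype has 1 library. Over 12 alternatives (other clustering, mitochondrial and gene limits, doublet scores, denominators, equal weight for each cell, the richest cell left out, thinning, other minimum or fold, and clusters in place of classes, which was chosen after seeing the data), between 4 and 7 of 8 members had the same highest class in both libraries, against 6 as reported. Member pairs past the limit ranged from 4 to 12 and pathway pairs from 9 to 93. With a minimum of 20 UMIs they were 12 of 75 member pairs and 93 of 658 pathway pairs (against 6 of 60 and 52 of 530 as reported), and at 2-fold 9 of 530 pathway pairs, and the cause was not tested. The share of all genes under these settings is not given, so nothing was read about the members or the pathway from these counts. Over 6 alternatives, 3 or 4 of 9 members were higher at the tip end of the enterocyte axis. Of 159 single values under alternatives, 134 stayed within the counting interval of the reported value and 25 fell outside it. Over 9 alternatives the ratio in T cell-like cells ranged from 2.74 to 6.35 for Areg, from 1.97 to 3.24 for Hbegf and from 1.19 to 2.19 for Erbb3. That of Hbegf in cluster 3 ranged from 2.01 to 2.18 over 5 alternatives. None of these 5 changed the clustering, so how the ratio depends on the borders of this unnamed cluster was not tested. Under 10% mitochondrial UMIs, villus tip-like cells and clusters 3 and 9 had too few cells for a value. The depth limits Egf, Ereg in the crypt and Btc outside goblet-like cells, where counts were near 0.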
